A study of Mus musculus and Homo sapiens with 43 samples.

Results

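Antigen presentation was followed here through 10 mouse genes that place peptides on the cell surface for T cells, chosen by symbol and not by their values. They were H2-K1, H2-D1, B2m, Tap1, Tap2, Tapbp, Nlrc5, H2-Aa, H2-Ab1 and Cd74. All 10 were listed among 23487 genes of the RiboTag table, and all 10 among 24421 genes of the polysome table, where 8 had an adjusted p. The table of translational efficiency listed 7 of them among 9833 genes, without H2-D1, H2-Aa and H2-Ab1.

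The study asked how leucyl-tRNA synthetase (LARS), which charges tRNA with leucine, affects translation in breast cancer. The cell line was 4T07, a mouse mammary carcinoma line that the labels call a breast cancer cell line, carrying the control hairpin shCtrl or 1 of the hairpins shLars3 and shLars4 against Lars. Polysome profiling sorts mRNA by the number of ribosomes it carries, and each of these 3 lines gave 3 libraries of mRNA with 1 to 2 ribosomes and 3 with 3 or more. RNA-Seq had 2 libraries for each line, and 1 pooled library of ribosome footprints carried no group label. RiboTag isolates mRNA through a tagged ribosomal protein that Cre switches on. It compared 3 PyMT mammary tumors of Lars fl/wt mice with 3 of Lars wt mice, all C57BL/6J. Both groups carried rpl22HA fl/wt, MMTV-Cre+ and MMTV-PyMT+, so Cre and the oncogene were driven by the MMTV promoter of mammary epithelium in the controls too. The ages of the mice are not given in the sources used here. The labels do not tell whether replicates of the cell line were grown apart, and the p-values may then reflect technical spread alone.

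MHC class I molecules show peptides from inside the cell to cytotoxic T cells. A heavy chain (H2-K1 or H2-D1) pairs with the light chain B2m, the transporter Tap1 and Tap2 carries peptides into the endoplasmic reticulum, and tapasin (Tapbp) helps to load them. NLRC5 is the transactivator of the class I genes. MHC class II molecules, of which H2-Aa and H2-Ab1 encode the alpha and beta chain, show peptides taken up from outside to helper T cells, and CD74 is the invariant chain that guards their groove. Class I is made by most cells, while class II is mainly made by dendritic cells, macrophages and B cells, and interferon-gamma induces both in many tissues.

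On GRCm38.p6, 7 of the 10 genes lie on chromosome 17 between 33919478 and 35267497, a stretch of 1.35 megabases in the MHC region. B2m lies on chromosome 2 (122147687 to 122153082) and overlaps Patl2, while Nlrc5 and Cd74 lie on chromosomes of their own. The library kit does not mark strand, so reads of B2m and Patl2 cannot be told apart by strand. H2-K1, H2-D1 and the H2-Q and H2-T genes are close copies, which makes single values uncertain. 4T07 descends from a BALB/c mouse, whose MHC haplotype differs from that of the C57BL/6 reference; whether this moved the class I counts was not tested.

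Promoter windows were on hand in RefSeq (GRCm38.p6) for 6 of the 10 genes. The 250 bases before the start of 3 of them are shown, because class I and class II genes are known to share an upstream module. Capitals mark every match, on either strand, to 4 motifs. These were the NF-κB motif, AANNGAAA (the core of interferon response elements), TGACG (the core of the X2 box) and CCAAT (the core of the Y box). In H2-Aa, the capitals TGACGTCA are 2 overlapping matches to TGACG, and in H2-D1 the NF-κB matches overlap each other.
H2-D1, chr17:35262844-35263093, plus strand: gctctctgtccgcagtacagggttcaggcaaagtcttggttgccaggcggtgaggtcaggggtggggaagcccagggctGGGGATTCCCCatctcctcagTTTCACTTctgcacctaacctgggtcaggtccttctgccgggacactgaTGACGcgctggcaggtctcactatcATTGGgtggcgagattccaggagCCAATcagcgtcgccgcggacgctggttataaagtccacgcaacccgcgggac
B2m, chr2:122147437-122147686, plus strand: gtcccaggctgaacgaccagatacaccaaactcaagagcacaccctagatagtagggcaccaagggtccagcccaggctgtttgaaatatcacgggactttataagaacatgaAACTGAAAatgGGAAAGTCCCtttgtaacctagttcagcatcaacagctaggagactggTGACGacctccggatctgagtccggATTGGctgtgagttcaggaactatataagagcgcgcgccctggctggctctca
H2-Aa, chr17:34287824-34288073, minus strand: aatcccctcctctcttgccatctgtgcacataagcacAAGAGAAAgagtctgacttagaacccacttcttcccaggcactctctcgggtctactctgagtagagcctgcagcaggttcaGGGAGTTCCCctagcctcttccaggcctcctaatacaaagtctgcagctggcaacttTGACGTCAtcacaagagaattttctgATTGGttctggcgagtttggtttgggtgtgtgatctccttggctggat

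All 3 windows hold all 4 motifs, as does a window of H2-K1, which was true of 0.07% of 32851 RefSeq windows of this length. Singly, the NF-κB motif was in 5.0% of windows, AANNGAAA in 21.3%, TGACG in 17.8% and CCAAT in 33.8%. The motifs were picked as known MHC elements, so this share describes the windows and tests nothing. The H2-K1 window (chr17:34000334-34000583, minus strand) is not shown, because it is counted from a start that lies inside the gene's annotated span. It was 87.2% identical to that of H2-D1 over 203 aligned bases. Tap1 holds TGACG and CCAAT without the other motifs, and Tapbp holds CCAAT alone.

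The tables are results of the authors and give no value per library, so values by sample, total counts and the overlap of groups could not be shown. The errors below are the deposited standard errors (SE). Mean counts that many genes share, read as 1 read in 1 library, gave 6 RiboTag libraries with relative size factors of 0.44 to 1.31. The same reading gave 27 polysome libraries, 9 more than are labelled, so the polysome values may rest on libraries not described here. Lars stood at -1.46 in mRNA in the authors' deposited efficiency table, lower in the knockdown, and at -0.75 (SE 0.43, unadjusted p = 0.0807) in their RiboTag table. In the authors' deposited polysome table it lay at -0.82 (SE 0.30, DESeq2 adjusted p = 0.0285).

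The polysome libraries covered light and heavy fractions of the control and the Lars knockdown lines. Class I genes were found on both sides of the deposited polysome comparison. The light chain and a heavy chain gene passed on the negative side, and the transactivator gene passed on the positive side. Of the 8 members with an adjusted p, 2 passed on the negative side, where 17.5% of all 13485 tested genes did, and 1 on the positive side, where 10.4% did. Together this is 3 of 8 against 27.9% of all genes, so the share is close to the background. Neither the contrast nor its direction is stated in the table, and values are therefore given by side. Whether they compare fractions, hairpins or both is unknown.

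B2m, the light chain shared by all class I molecules, lay farthest out. The authors' deposited table gave it a log2 fold change of -1.17 (SE 0.27, DESeq2 adjusted p = 0.000231) at a mean normalized count of 20023. This is a 2.25-fold difference, with a 95% interval of -1.71 to -0.64, and 9.26% of tested genes lay lower. H2-K1, a class I heavy chain gene, stood at -0.60 (SE 0.18, DESeq2 adjusted p = 0.0063) in that deposited table of the authors, a 1.51-fold difference with an interval of -0.95 to -0.24. H2-D1, the other heavy chain gene, stood at -0.45 (SE 0.21) in the authors' deposited table and missed the threshold (DESeq2 adjusted p = 0.099). At an adjusted p under 0.1 (34.8% of all genes) or an unadjusted p under 0.05 (37.9%), H2-D1 would have passed too, making 4 of 8. Its interval of -0.86 to -0.03 overlaps those of B2m and H2-K1. A difference between 2 members was not tested, since the covariance of their values is unknown.

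The loading genes lay near the middle of the distribution. Tapbp stood at 0.07 (SE 0.19, DESeq2 adjusted p = 0.835) in the authors' deposited table, and its interval of -0.31 to 0.45 bounds a difference at 1.36-fold. For the transporter genes the same table of the authors gave -0.23 (SE 0.65) for Tap1 and 0.03 (SE 0.61) for Tap2. Their mean normalized counts in the authors' deposited table were 37.6 and 159, and their intervals reach 2.83-fold and 2.34-fold. Differences of these sizes in either transporter gene lie within the error of the comparison.

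Nlrc5, the class I transactivator gene, was the member that passed on the positive side. It stood at 0.80 (SE 0.31, DESeq2 adjusted p = 0.0351) in the deposited table of the authors at a mean normalized count of 285, a 1.74-fold difference, and 90.4% of tested genes lay lower. Its call was lost when p-values were adjusted over all rows with a p (Benjamini-Hochberg adjusted p = 0.0505 on the deposited DESeq2 p). Nlrc5 (GRCm38.p6 chromosome 8, 94434335 to 94527272) overlaps 3 other annotated genes, Gm51584, Mir7072 and 9330175E14Rik.

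The class II chain genes H2-Aa and H2-Ab1 were all but unread in 4T07. H2-Aa had a mean normalized count of 0.0696 and H2-Ab1 of 0.462 in the authors' deposited polysome table, which gave neither an adjusted p. Over 27 libraries the H2-Aa value amounts to 1.88 normalized reads in all. Cd74, on chromosome 18 of GRCm38.p6 (60803849 to 60812652), was counted more often, at a mean of 82.7, and stood at -0.42 (SE 0.58, DESeq2 adjusted p = 0.644) in the authors' deposited table. Of leukocyte markers, 4 of 11 pan-leukocyte, 9 of 14 macrophage and 9 of 10 listed B cell markers had a mean count under 1, Tyrobp being at 0. Others were read: Arhgdib had a mean count of 3906 of the 3972 summed over the pan-leukocyte list, and the macrophage markers Cd14 and Cd68 had 634 and 141, in the authors' deposited table. The epithelial keratin genes Krt8 and Krt18 had mean counts of 8383 and 4113 in the authors' deposited polysome table. Other luminal markers ranged widely there, from Gata3 at 1985 to Epcam at 16.4, and 5 of 18 had a mean count under 1.

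**Figure D1:**
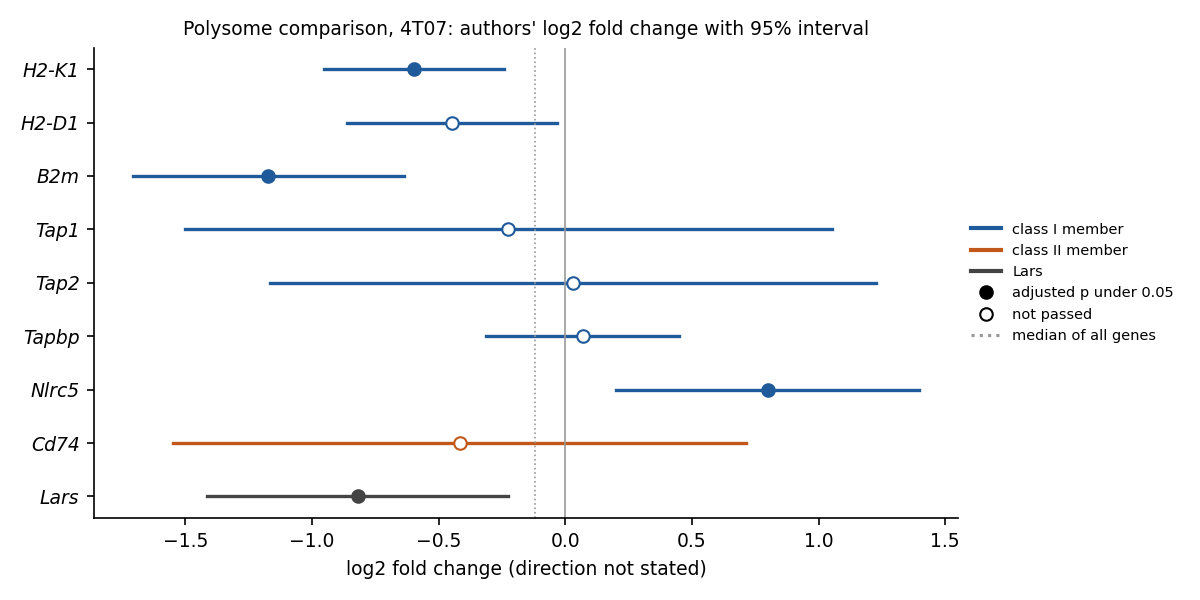
Log2 fold change of the polysome comparison (x axis, direction not stated) for the 8 members with an adjusted p and Lars (y axis), from the authors' table. Points are the deposited values, lines their 95% intervals, filled points passed at an adjusted p under 0.05. B2m at -1.17 and H2-K1 at -0.60 lie on the negative side, Nlrc5 at 0.80 on the positive side, and the lines of Tap1 and Tap2 are the widest.

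The polysome values of the members followed their genomic span. Ordered by span, H2-D1 (4404 bases), H2-K1 (4608 bases) and B2m (5396 bases) had the lowest values, Cd74, Tap1, Tapbp and Tap2 (8804 to 11843 bases) lay between, and Nlrc5 (92938 bases) had the highest. Spearman's rho was 0.88 over the 8 members and 0.82 without Nlrc5. The comparison with span was not planned, and leaving out Nlrc5 was an alternative chosen after seeing the data. Over 12823 tested genes with a span rho was 0.38, so the trend is shared with the table as a whole. With the genes split by span into groups of equal size, the group of B2m, H2-K1 and H2-D1 had a median of -0.48. B2m lay 0.69 below that median (log2), H2-K1 0.12 below it and H2-D1 0.03 above it (differences of -0.69, -0.12 and 0.03). Nlrc5 lay 0.56 above the median of its own group, which was 0.23. Genomic span includes introns and is not transcript length, and its part in the members' values was not tested.

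**Figure D2:**
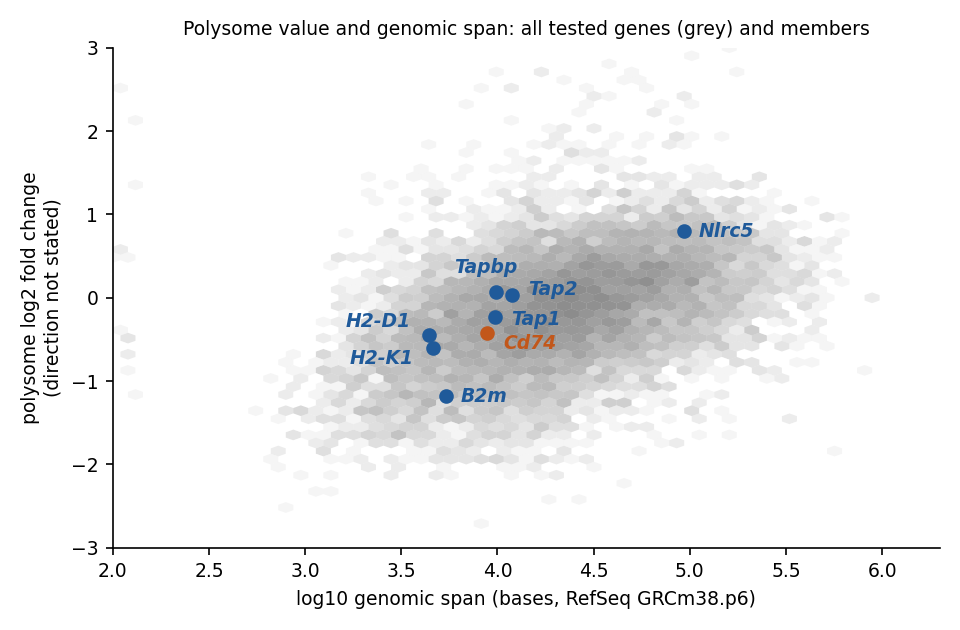
Polysome log2 fold change (y axis, direction not stated) against the log10 of genomic span in bases (x axis) for tested genes, shaded darker where more genes fall, and for the 8 members as points (class I blue, class II orange). The members run from B2m at 5396 bases and -1.17 to Nlrc5 at 92938 bases and 0.80, along the trend of all genes; 299 genes lie outside the axes.

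Genes around the 10 members were split between sides as well. Of 28 other genes of the class I pathway, 3 passed on each side, with a median of -0.08 against -0.12 for all tested genes. On the negative side were Psmb10 at -1.19 (SE 0.30), a subunit of the immunoproteasome, and the proteasome activator genes Psme1 at -0.72 (SE 0.15) and Psme2 at -0.97 (SE 0.24) in the authors' deposited table. The positive side held the aminopeptidase gene Lnpep at 1.59 (SE 0.32) and the class I genes H2-Q6 at 1.32 (SE 0.26) and H2-T24 at 3.36 (SE 0.74) in the authors' deposited table. H2-T24 had a mean count of only 15.0 there. Of 17 listed class II pathway genes, 7 had an adjusted p and 2 passed, both on the negative side. They were H2-DMa at -0.76 (SE 0.27), a chain of the class II peptide exchanger, and the thiol reductase gene Ifi30 at -0.78 (SE 0.19) in the authors' deposited table.

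Regulators of MHC transcription were divided evenly, with 4 of 20 on each side and a median of 0.07. The coactivator genes Crebbp at 2.77 (SE 0.38) and Ep300 at 1.40 (SE 0.31) and the CCAAT-binding subunit gene Nfya at 0.65 (SE 0.14) passed on the positive side, per the authors' deposited table. Its partner subunits Nfyb at -0.54 (SE 0.18) and Nfyc at -0.48 (SE 0.14) passed on the negative side of that deposited table, as did Rfxap, a subunit of the X-box binding complex, at -1.28 (SE 0.42). Ciita, the class II transactivator gene, had a mean count of 1.73 in the authors' deposited table and no adjusted p. Of 10 genes of interferon signalling, 2 passed, both on the negative side: the feedback inhibitors Socs1 at -1.08 (SE 0.38) and Ptpn2 at -0.62 (SE 0.19) in the authors' deposited table. Among 20 interferon-induced genes the negative side held 3 that passed and the positive side 0. The background was 17.5% of all tested genes (negative side) and 10.4% (positive side), and the counts of these small lists are not read as differing from the background. The interferon-induced genes that passed were Isg15 at -0.85 (SE 0.29), Bst2 at -0.84 (SE 0.34) and Ifi27 at -0.80 (SE 0.22) in the authors' deposited table.

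In the efficiency table, which compares Lars knockdown with control and gives its direction, most members had an mRNA value above 0 and an efficiency value below 0, and no member passed. Efficiency is the ratio of ribosome footprints to mRNA. The mRNA value was above 0 in 6 of the 7 members, where 49.9% of all genes were, and the efficiency value was below 0 in 6, where 52.0% of all genes were. These were the same 6 members, all but Tap2. The efficiency value contains the mRNA value, so the 2 counts are not independent. The footprint value was above 0 in 4 of the 7, against 48.2% of all genes. The median mRNA value was 0.25 against 0.00 (-0.0006) for all genes, the median footprint value 0.01 against -0.01 and the median efficiency value -0.25 against -0.01. In the xtail test of efficiency 0 of 7 passed, with adjusted p from 0.829 to 0.999977, and 0 had an unadjusted p under 0.05; 0.0508% of all genes passed and 6.35% had an unadjusted p under 0.05. The table gives no error and no test for mRNA or footprints alone, and the sources used here do not say how the pooled footprint library was divided between its arms.

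Tap1 showed the widest gap between the measurements. Its mRNA value was 1.23 in the authors' deposited table, 2.35-fold above control with no test, and 99.5% of genes lay lower. The authors' deposited table put its footprints at -0.06 and its efficiency at -1.23 (xtail adjusted p = 0.846). In the polysome libraries, Tap1 and Cd74 were the least counted of the 8 members with an adjusted p, at means of 37.6 and 82.7. The counts behind the efficiency values are not given. Tap2, which forms the transporter with Tap1, had values of the opposite sign. The authors' deposited table gave it an mRNA value of -0.22, a footprint value of 0.25 and an efficiency value of 0.47 (xtail adjusted p = 0.95). It was the member with a positive efficiency value. For Tapbp the deposited table of the authors gave an mRNA value of 0.25, a footprint value of -0.03 and an efficiency value of -0.25 (xtail adjusted p = 0.907).

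Cd74 was the member with the lowest footprint value. Its mRNA stood at 0.20 and its footprints at -0.94 per the authors' deposited table, 1.92-fold below control with no test, and 1.54% of genes lay lower. Its efficiency value was -0.92 in the authors' deposited table, with the smallest unadjusted p of the members (xtail p = 0.085, adjusted p = 0.829). Of the class I chains, H2-K1 had an mRNA value above that of 92.1% of genes, and B2m above that of 75.9%. H2-K1 had an mRNA value of 0.35, a footprint value of 0.10 and an efficiency value of -0.25 (xtail adjusted p = 0.912, the authors' deposited table). B2m had an mRNA value of 0.14, a footprint value of 0.01 and an efficiency value of -0.12 (xtail adjusted p = 0.968, the authors' deposited table). Nlrc5 stood high in both layers: the authors' deposited table gave 0.62 for its mRNA, 0.54 for its footprints and -0.06 for its efficiency (xtail adjusted p = 0.999977). Its mRNA and footprint values exceeded those of 97.5% and 95.9% of genes.

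**Figure D3:**
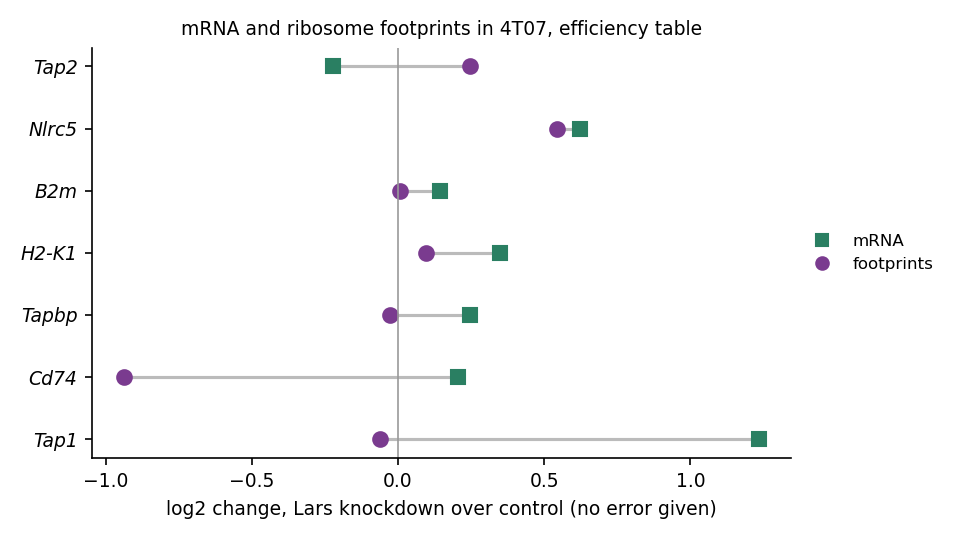
Log2 change in Lars knockdown over control 4T07 cells (x axis) of mRNA (squares) and ribosome footprints (circles) for the 7 members in the efficiency table (y axis, ordered by efficiency), as deposited and without errors. The mRNA square lies to the right of the footprint circle for every member but Tap2, with the longest lines for Tap1 (1.23 and -0.06) and Cd74 (0.20 and -0.94).

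In control cells, Tap1 and Cd74 were also the members with the highest ratio of footprints to mRNA. The log2 ratio in control cells was 2.93 for each in the authors' deposited table, above that of 99.0% of genes. In the knockdown it was 1.64 for Tap1 and 1.79 for Cd74 in the authors' deposited table. High control ratios went with lower values on knockdown across the table. The 170 genes with a log2 control ratio above 2.5 had a median efficiency value of -0.50, and 75.9% of them were below 0. Across all genes Spearman's rho between control ratio and efficiency change was -0.29; both contain the control ratio, so this is a description. Tapbp (1.57), Tap2 (0.68), B2m (0.45), H2-K1 (-0.21) and Nlrc5 (-1.39) followed in the order of control ratio in the authors' deposited table. No spread is given, so which neighbours in this order differ is unknown.

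Other class I pathway genes lay nearer to the values of all genes, with medians of 0.08 in mRNA, -0.03 in footprints and -0.07 in efficiency over 20 genes. Of these 14 had an mRNA value above 0, 11 an efficiency value below 0, and 0 passed for efficiency. H2-Q4, another class I heavy chain gene, had an mRNA value of 0.60 and an efficiency value of -0.65, per the authors' deposited table (xtail unadjusted p = 0.0138, adjusted p = 0.757). The proteasome activator gene Psme3 lay on the other side, with an mRNA value of -0.06 and an efficiency value of 0.51 in the authors' deposited table (xtail unadjusted p = 0.017, adjusted p = 0.757). Over 10 genes of interferon signalling the medians were -0.04 in mRNA (4 above 0) and 0.05 in efficiency, with 0 passed. The smallest p among them was that of the kinase gene Jak2, whose efficiency value was 0.63 per the authors' deposited table (xtail unadjusted p = 0.0587, adjusted p = 0.804). Over 11 interferon-induced genes the medians were 0.15 in mRNA, -0.12 in footprints and -0.11 in efficiency, with 0 passed.

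RiboTag addressed the mRNAs held by tagged ribosomes in tumors with 1 floxed Lars allele and in Lars wt tumors. No antigen presentation gene passed. In the authors' deposited table all 10 had a DESeq2 adjusted p of 0.999946, and 0 had an unadjusted p under 0.05. Of all genes listed there, 0% passed and 1.19% had an unadjusted p under 0.05 (1.85% of those with a mean count of at least 10). The values of the members ran from -0.73 to 0.63, and 6 of 10 were on the positive side. Of the 14224 genes of mean count at least 10, 49.6% were. The member median was 0.19 against -0.00 (-0.0038) for those genes. Direction is not stated here either; Lars lies on the negative side.

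B2m was the lowest member here too. It stood at -0.73 (SE 0.46, unadjusted DESeq2 p = 0.112) in the authors' deposited table, and 4.37% of genes lay lower. Its interval of -1.63 to 0.17 includes no difference and reaches 3.10-fold. The heavy chain genes were near 0, with H2-K1 at 0.02 (SE 0.52) and H2-D1 at -0.19 (SE 0.46) in the authors' deposited table. For H2-K1 the interval is -0.996 to 1.03, reaching 2.04-fold at a mean normalized count of 57555. Higher counts did not go with smaller errors among the well counted members, since Tapbp had the smallest SE at a mean normalized count of 7456. The loading genes were spread over both sides. The authors' deposited table gave Tap2 0.63 (SE 0.55), Tap1 0.37 (SE 0.52) and Tapbp -0.18 (SE 0.43). The transactivator gene Nlrc5 stood at 0.39 (SE 0.55) in the authors' deposited table. The intervals of all 10 members include 0, and their wider ends reach from 2.02-fold for Tapbp to 3.25-fold for Tap2, so differences of up to these sizes lie within the error. Over the 14224 genes of mean count at least 10, the deposited Wald scores had a standard deviation of 0.755. This is less than the test assumes for genes without a difference, so these intervals may be too wide.

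The class II chain genes, all but unread in 4T07, were well counted in the tumors, as was Cd74. H2-Aa had a mean normalized count of 4707, H2-Ab1 of 4743 and Cd74 of 10489 in the authors' deposited RiboTag table; the tables were normalized separately. H2-Aa stood at 0.42 (SE 0.50, unadjusted DESeq2 p = 0.408) and H2-Ab1 at 0.50 (SE 0.53, unadjusted DESeq2 p = 0.345) in the authors' deposited table. For Cd74 the authors' deposited table gave -0.04 (SE 0.53, unadjusted DESeq2 Wald p = 0.938). The intervals of all class II members overlap over most of their length. Of 15 other class II pathway genes of mean count at least 10, 13 were on the positive side, with a median of 0.36, where 49.6% of all such genes were positive; 0 had an unadjusted p under 0.05. The lysosomal protease genes Lgmn at 0.93 (SE 0.51) and Ctss at 0.60 (SE 0.52) and the class II chain gene H2-Eb1 at 0.19 (SE 0.51) were among them in the authors' deposited table. Ciita stood at -0.05 (SE 0.56) in the authors' deposited table. Other class I pathway genes had a median of 0.01, with 13 of 25 positive.

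**Figure D4:**
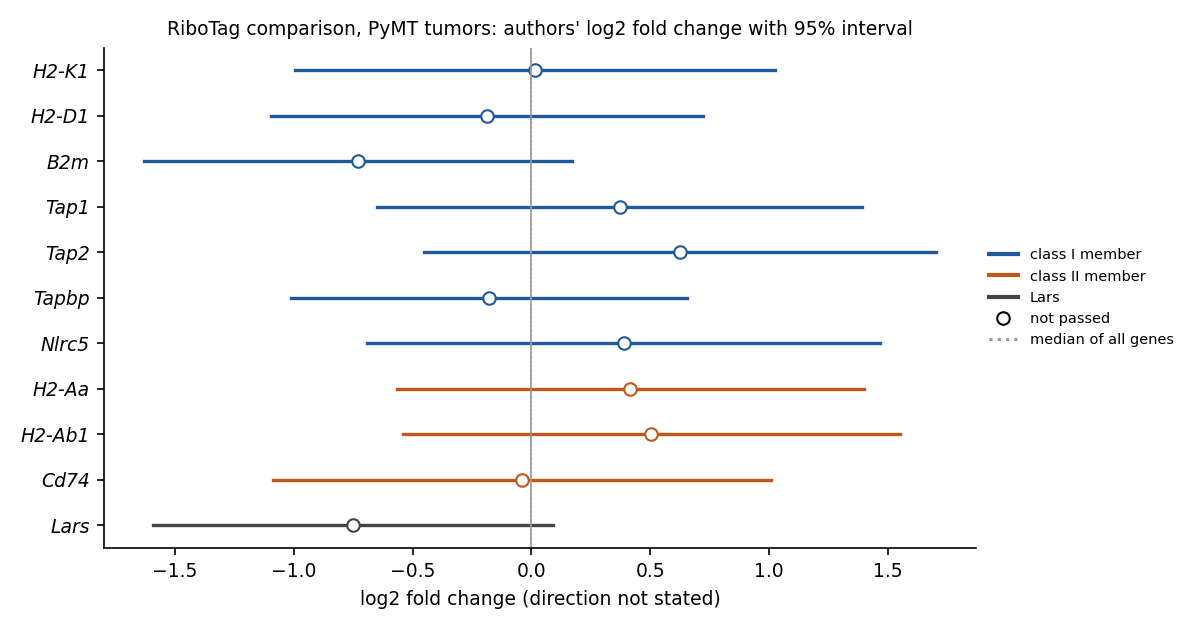
Log2 fold change of the RiboTag comparison (x axis, direction not stated) for the 10 members and Lars (y axis), from the authors' table, with 95% intervals as lines. Open points mark genes that did not pass, which were all of those shown; B2m at -0.73 is the lowest member and Tap2 at 0.63 the highest, and every line crosses 0.

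Markers of cells known to bear class II were read in the same libraries, with macrophage and dendritic cell markers mostly on the positive side and B cell markers mostly on the negative side. Of 13 macrophage markers, 13 were on the positive side, with a median of 0.54, a summed mean count of 24211 and none at 0. The receptor gene Csf1r stood at 0.45 (SE 0.61), Lyz2 at 0.41 (SE 0.50) and the complement gene C1qa at 0.94 (SE 0.59) in the authors' deposited table. Of 11 pan-leukocyte markers 10 were positive, with a median of 0.39 and a summed mean count of 9817. Dendritic cell markers had a median of 0.36 (5 of 7 positive), B cell markers -0.20 (2 of 6 positive) and T and NK cell markers -0.20 (5 of 14). Among these 5 lists, 1 macrophage and 2 B cell markers had an unadjusted p under 0.05 and 0 passed after adjustment. Of all genes of mean count at least 10, 49.6% were positive and 1.85% had an unadjusted p under 0.05. The macrophage marker was Msr1, at 1.34 (SE 0.67, unadjusted DESeq2 p = 0.0468) in the authors' deposited table. The 2 B cell markers lay on opposite sides. The smaller p was that of the immunoglobulin gene Ighm, at -1.35 (SE 0.49, unadjusted DESeq2 p = 0.00586) in the authors' deposited table. Cd79b stood at 1.91 (SE 0.90, unadjusted DESeq2 p = 0.0349) in the authors' deposited table, at a mean count of 21.3. The pull-down selects tagged ribosomes, which MMTV-driven Cre is meant to confine to mammary epithelium; whether the leukocyte reads came from tagged ribosomes or were carried over was not tested, nor was their part in the class II values. In such libraries, each made from the cells of a tumor together, fewer cells of a type and less RNA per cell cannot be told apart.

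Epithelial markers stood on the positive side too. Luminal markers, which define the tumor epithelium, had a median of 0.26 (16 of 18 positive), with Krt8 at 0.33 (SE 0.45) and Epcam at 0.19 (SE 0.44) in the authors' deposited table. Basal and myoepithelial markers had a median of 1.39, with all 10 positive and 6 at an unadjusted p under 0.05. Neutrophil markers had a median of 1.73 (5 of 5 positive, 3 at an unadjusted p under 0.05) and erythroid markers of 2.88 (5 of 5, with 4). The shares over all genes of mean count at least 10 were 49.6% positive and 1.85% at an unadjusted p under 0.05. The part of any of these lists in the members' values was not tested. Interferon-induced genes had a median of 0.12, with 16 of 24 positive, the lowest being Ifit2 at -0.94 (SE 0.55) in the authors' deposited table.

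**Figure D5:**
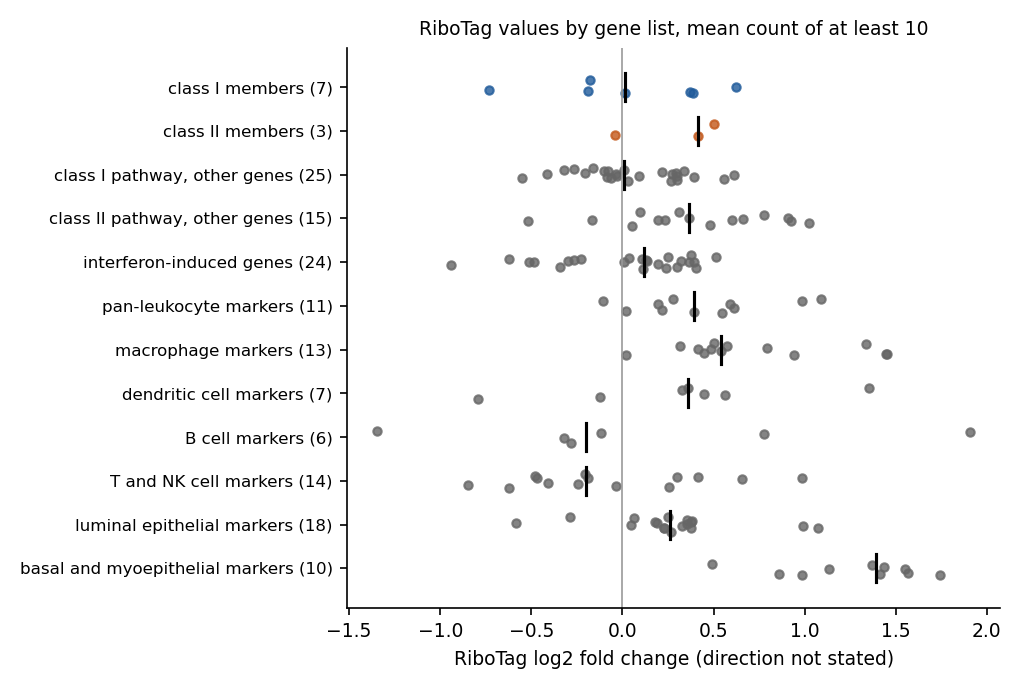
RiboTag log2 fold change (x axis, direction not stated) of single genes of mean count at least 10, by list (y axis, number of genes in brackets); black bars are medians. Class I members centre on 0.02 and the 3 class II members on 0.42, beside medians of 0.54 for macrophage, 0.39 for pan-leukocyte and 1.39 for basal markers.

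Likeness to H2-K1 was measured by Euclidean distance over the polysome, mRNA, footprint and RiboTag log2 values, among 9709 other genes. Of the 6 other members with all of these values, the nearest was Tapbp, at rank 2890 (distance 0.71), and B2m, which binds the H2-K1 protein, was at rank 5340 (0.97).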

How the data were processed

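The tables were used as the authors deposited them; those on human tRNA hold none of these genes. By their file headers, the polysome and RiboTag tables are output of DESeq2 run by the authors. Their mean normalized count is a deposited signal, averaged over libraries after scaling. Fold changes and SE were deposited on the log2 scale, and the deposited Wald score is their ratio. Raw and adjusted p-values came from the authors' Wald test, as deposited. Headers of the deposited efficiency table name xtail, with log2 values and p-values by the authors. In it, footprint minus mRNA change equalled knockdown minus control ratio within 7.33e-05, which sets its direction. Bowtie2 (2.4.1), STAR (2.5.2a), mm10, HTSeq, featureCounts, SAMtools and DESeq2 were used by the authors per the submitters' processing notes, with no roles given. Per the labels' protocols, libraries came from TruSeq RNA kit v2. Count tests were planned in case a table had counts per library; none did, and the deposited tests were used.

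A gene passed at a deposited adjusted p under 0.05. Intervals are normal 95% intervals from the SE. Left out were 18 of 9851 efficiency rows with a date as symbol and, of 23495 RiboTag rows, 7 repeating the symbol of a better counted row and 1 without a symbol. RiboTag percentiles and list medians use genes of mean count at least 10. All 10 members were named, and of each list up to 3 genes per direction with the smallest p in a comparison, with defining cell type markers of mean count under 1; Ciita, H2-Eb1, Krt8, Krt18 and Epcam were named after their values were seen. The genes nearest to H2-K1 by likeness are not reported here. Members and lists were chosen with earlier results of these data known. Spans and promoters are RefSeq GRCm38.p6, the assembly behind mm10, and 95.1% of tested genes had a span. The adjustment was tested on simulated data. Software was matplotlib 3.10.9, scipy 1.17.1, pandas 2.3.3, numpy 2.4.6 and Python 3.11.15. Alternatives were the adjustment, the threshold, centring on the median, shared symbols and the other xtail estimates.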

Additional observations from a re-analysis of the deposited data

How the results depend on the processing

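The counts of members passed were 3 in the polysome, 0 in the efficiency and 0 in the RiboTag comparison, and stayed within 1.5 times under every alternative run. Of 48 polysome values for single members, 45 kept their direction and their side of the threshold. Nlrc5 lost its call with adjustment over all rows (Benjamini-Hochberg adjusted p = 0.0505), and H2-D1 (-0.45) passed at an adjusted p under 0.1 (DESeq2, 0.099) and at the unadjusted p (0.0343). All 60 RiboTag values and all 42 efficiency values kept theirs under 6 settings each. For RiboTag the smallest p was 0.112, the unadjusted DESeq2 p of B2m. For efficiency the smallest adjusted p was 0.309, that of Cd74 by the first xtail estimate. The unadjusted xtail p of Cd74 by that estimate was 0.0793, so the 2 smallest values are not alike. Leaving out replicates was not run, as the tables hold no value per library. No paired analysis was possible because the tables give no column per library that a replicate number could join. Depth per library is unknown; the polysome SE was 0.65 for Tap1 at a mean count of 37.6, 0.58 for Cd74 at 82.7 and 0.61 for Tap2 at 159, so count alone does not order these errors.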
